A study of Mus musculus with 12 samples.

Results

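The small leucine-rich proteoglycans and versican were followed through RNA sequencing of primary mouse skin fibroblasts. The 10 genes were chosen by name from the count table of 21556 genes, not by their values. They are Dcn, Bgn, Aspn, Fmod, Lum, Prelp, Omd, Ogn and Podn, which encode 9 small leucine-rich proteoglycans, and Vcan, which encodes versican. All 10 passed the limit of 1 RPKM (the count scaled to the exon length in kilobases and to the total count of the library) in at least 1 group of each comparison, so none was left untested.

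Small leucine-rich proteoglycans are secreted proteins built from a curved stack of leucine-rich repeats, and many of them carry chains of chondroitin, dermatan or keratan sulfate. Several bind fibrillar collagen and regulate how fibrils form, and some also bind growth factors, TGF-β among them. Versican is a much larger proteoglycan that binds hyaluronan and holds water around cells. In skin, dermal fibroblasts make most of these proteins, and their mixture is known to differ between resting dermis, wounds and scars.

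The fibroblasts were grown from abdominal skin of WT mice (C57BL/6) and of Nox4 KO mice (B6.129-Nox4tm1Kkr/J). Nox4 is an NADPH oxidase that produces hydrogen peroxide, and the study asked whether it takes part in the conversion of fibroblasts to myofibroblasts. Each genotype was sequenced unstimulated and after exposure to 10 ng/ml of TGF-β2 for 24 h, with 3 libraries in each of the 4 groups. Cells had been starved before stimulation. The targeted allele of the KO mice is constitutive rather than limited to fibroblasts, and the age of the mice that gave the cells is not given in the sources used here. Neither the labels nor the methods say whether the 3 libraries of a group came from separate mice or cultures, so the p-values measure only the spread between these samples.

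Total counts were between 35118344 and 43796260 per library. All 8 fibroblast markers were above 1 RPKM in every group, with sums of 7010 to 8510 RPKM in control and 4420 to 5920 after TGF-β2, and the summed level of 7 keratinocyte markers was under 1 RPKM in every library. The sum of 7 leukocyte markers, most of it Lyz2, ranged from 12.6 to 113 RPKM. It was highest in replicate 3 of WT and in replicate 1 of Nox4 KO, with and without TGF-β2, and it was lower after TGF-β2 than in the control of the same number in all 6 cases. The sum of 5 adipocyte markers was between 0.66 and 5.58 RPKM in control and between 0.18 and 1.21 after TGF-β2. The skeletal muscle list summed to 42 to 110 RPKM in control and to 256 to 615 after TGF-β2, nearly all of it Acta1, while Myod1, Myog and Ckm stayed at 3 counts or fewer and Myh4 at 0. The part of other cells in the results was not tested, and in bulk samples fewer cells of a type cannot be told apart from less RNA per cell. Nox4 itself had 1.48, 1.31 and 2.42 RPKM in WT control and 0.655, 0.636 and 1.4 in Nox4 KO control. After TGF-β2 it had 10.9, 8.56 and 16.3 RPKM in WT and 4.54, 4.39 and 6.85 in Nox4 KO. Reads were thus still assigned to Nox4 in the KO libraries, and a gene total says nothing of the exons covered.

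Of the 10 genes, 7 lie beside another member on GRCm38. Prelp (chromosome 1, 133910304 to 133921414, minus strand) and Fmod (chromosome 1, 134037254 to 134048277, plus strand) are separated by 115.8 kb with no counted gene between them. Dcn (chromosome 10, 97479609 to 97518143) and Lum (chromosome 10, 97565128 to 97572703) lie on the plus strand 47.0 kb apart. Aspn (chromosome 13, 49544443 to 49567565), Omd (49582462 to 49592822) and Ogn (49608046 to 49624501) follow each other on the plus strand within gaps of 14.9 and 15.2 kb, all inside the span of Cenpp on the minus strand. The remaining genes are Vcan (chromosome 13, 89655312 to 89742509, minus strand), Podn (chromosome 4, 108014791 to 108096445, minus strand) and Bgn (chromosome X, 73483602 to 73495933, plus strand). Prelp shares 350 exonic bases with the antisense gene Gm15851, which has no row in the table, and Aspn shares 7 with Cenpp. The sources used here do not say if reads were counted by strand.

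The promoter windows of 4 genes are shown, namely the 2 genes that fell by more than 2-fold after TGF-β2 in both genotypes, Prelp and Podn, the neighbour of Prelp, Fmod, and Bgn, which had the highest level. The windows run from 250 bases before to 50 bases after the RefSeq transcript start (GRCm38.p6), and are at chr1:133921352-133921651 (minus strand), chr4:108030937-108031236 (minus strand, inside the annotated span of the gene and 1 of 2 starts listed), chr1:134037004-134037303 (plus strand) and chrX:73483351-73483650 (plus strand). Capitals mark matches on either strand to the motif TATAAA of the core promoter, to the motif CAGAC of SMAD proteins, to the AP-1 motif TGANTCA or to the CCAAT box.
Prelp: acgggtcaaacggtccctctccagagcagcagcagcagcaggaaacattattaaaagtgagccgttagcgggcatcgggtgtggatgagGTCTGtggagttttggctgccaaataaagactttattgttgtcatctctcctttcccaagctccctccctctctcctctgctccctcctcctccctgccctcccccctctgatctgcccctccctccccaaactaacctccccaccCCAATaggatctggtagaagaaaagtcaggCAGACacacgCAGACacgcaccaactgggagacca
Podn: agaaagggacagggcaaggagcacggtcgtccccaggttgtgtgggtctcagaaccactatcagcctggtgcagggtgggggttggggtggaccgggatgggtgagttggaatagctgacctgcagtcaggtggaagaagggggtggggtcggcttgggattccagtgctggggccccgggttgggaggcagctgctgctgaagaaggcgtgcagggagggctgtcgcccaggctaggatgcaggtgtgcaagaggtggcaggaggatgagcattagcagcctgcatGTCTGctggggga
Fmod: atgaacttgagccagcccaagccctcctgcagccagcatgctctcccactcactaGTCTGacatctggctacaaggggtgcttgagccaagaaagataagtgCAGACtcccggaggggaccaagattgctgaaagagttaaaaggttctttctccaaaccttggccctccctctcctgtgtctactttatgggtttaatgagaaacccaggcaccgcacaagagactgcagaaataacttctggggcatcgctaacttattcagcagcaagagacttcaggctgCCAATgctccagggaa
Bgn: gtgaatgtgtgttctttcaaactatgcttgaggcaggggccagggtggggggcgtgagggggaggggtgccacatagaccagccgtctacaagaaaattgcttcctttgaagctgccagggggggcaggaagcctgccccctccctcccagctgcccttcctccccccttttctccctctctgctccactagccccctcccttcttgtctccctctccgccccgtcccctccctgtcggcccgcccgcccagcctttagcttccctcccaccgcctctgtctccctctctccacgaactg
The CAGAC motif matched 3 times in the Prelp window, 2 times in that of Fmod and once in the Podn window shown, and did not match in that of Bgn. The other Podn window, at chr4:108031905-108032204, had no match to any of the motifs. It was present in 3 of the 9 windows found for 8 of the 10 genes, against 49.6% of all 32851 windows of this length. TGANTCA, bound by AP-1, was in 0 of the 9 windows against 7.81% of all. CCAAT was in 4 against 37.4%, and TATAAA in 2, those of Aspn and Ogn, against 13.6%. A match is a description of these letters and no evidence of binding. Dcn and Lum had no entry.

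Bgn had by far the highest level of the 10 genes in all 4 groups. In WT control its mean was 3050 ± 99.6 RPKM (SD, n = 3), rank 4 of 21556 genes. Prelp followed with 497 ± 38.9, Dcn with 327 ± 165, Fmod with 87.1 ± 13, Aspn with 77.1 ± 39.7, Podn with 33.3 ± 8.79, Ogn with 33.2 ± 15.9, Vcan with 26.6 ± 2.72, Lum with 7.21 ± 2.45 and Omd with 2.6 ± 1.45. The ranges over libraries overlapped between Prelp and Dcn, between Fmod and Aspn, and between Podn, Ogn and Vcan, so their order in WT control is not set by these samples. With the exon lengths of protein-coding transcripts, Dcn stood above Prelp after TGF-β2 in both genotypes without overlap (183 to 327 against 104 to 130 RPKM in WT, 204 to 216 against 69.2 to 109 in Nox4 KO). Levels depend on the exon length used. With the exons of all transcripts in place of the protein-coding ones, Bgn had 1210, Dcn 118, Podn 25.2 and Vcan 25.5 RPKM in WT control. After TGF-β2, Podn went from 13.1 ± 1.98 to 9.88 RPKM in WT and from 13.2 ± 2.28 to 9.96 in Nox4 KO with this change of length. The lengths of the other members were the same. With these lengths the means after TGF-β2 were 84.7 (Dcn) and 121 RPKM (Prelp) in WT and 76 (Dcn) and 94.2 RPKM (Prelp) in Nox4 KO. The ranges then overlapped (65.9 to 118 against 104 to 130 RPKM in WT, 73.5 to 77.8 against 69.2 to 109 in Nox4 KO), so the order of these genes is not set. Reads were counted on the exons of protein-coding isoforms, which the protein-coding lengths match. Levels and shares with these lengths in all 4 groups were computed after seeing the data.

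**Figure D1:**
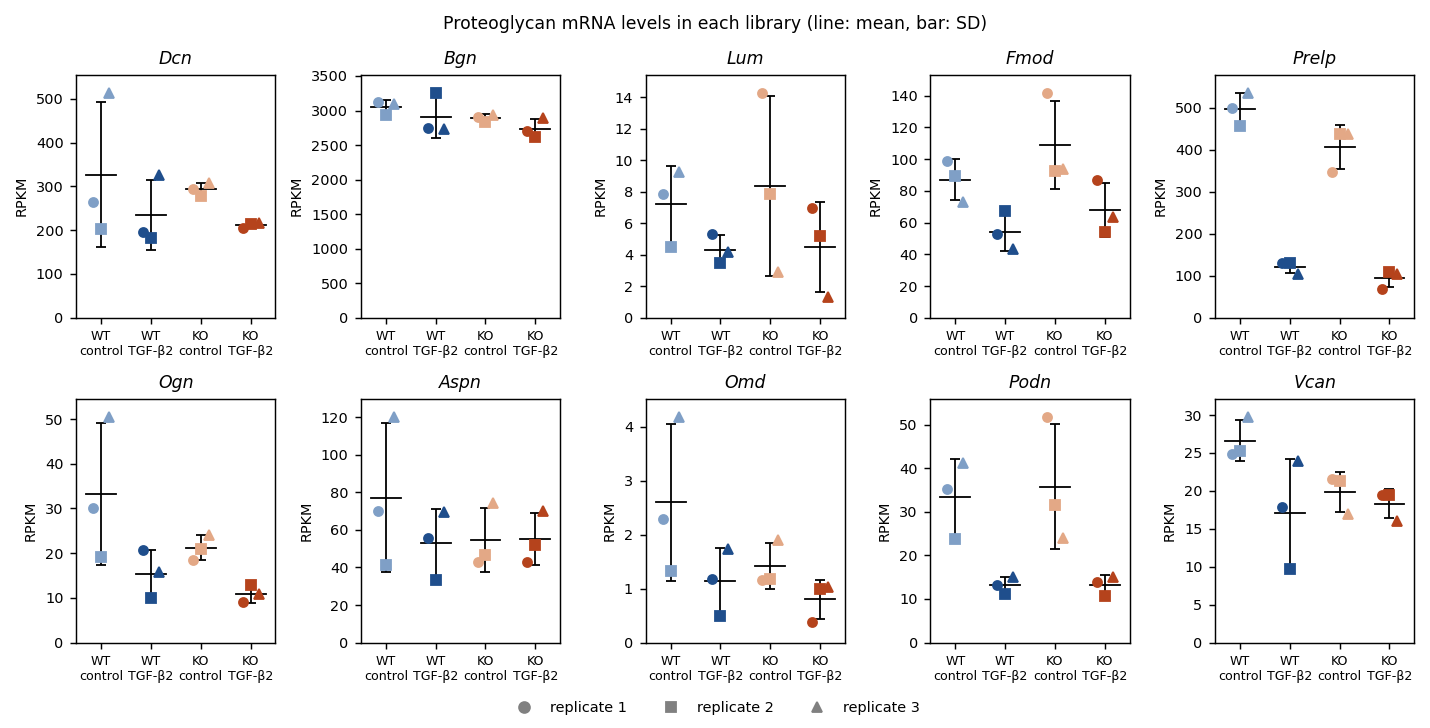
Level of each of the 10 genes (y axis, RPKM, linear from 0) in each of the 12 libraries by group (x axis), with the mean as a line and the SD as a bar. Prelp and Podn are lower in every TGF-β2 library than in every control library of the same genotype, while Bgn stays between 2620 and 3260 RPKM throughout.

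TGF-β2 lowered 2 of the 10 genes, Prelp and Podn, in WT and in Nox4 KO fibroblasts, and none was called higher. Calls required at least a 2-fold difference and a p-value below 0.05 in the quasi-likelihood test of edgeR, adjusted after Benjamini and Hochberg over all genes tested. In WT, 5.09% of 10743 genes were called lower and 2.62% higher. In Nox4 KO, 4.58% of 10809 were called lower and 2.22% higher. None of the 10 genes was higher at an unadjusted p under 0.05 in either genotype, and DESeq2 called none higher. The log2 fold change was negative for 10 of 10 genes in WT and for 8 of 10 in Nox4 KO. Its median was -0.67 in each, beside 0 over all genes in WT and -0.01 in Nox4 KO.

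Prelp, the gene of a collagen-binding member with a basic N-terminal region, changed most. It had 500, 457 and 534 RPKM in WT control and 130, 130 and 104 after TGF-β2. In Nox4 KO it had 347, 438 and 437 RPKM in control and 69.2, 109 and 105 after TGF-β2. Every stimulated library was far below every control library. The level was 3.98-fold lower in WT (log2 fold change -1.99, SE 0.13, adjusted p = 0.000434) and 4.07-fold lower in Nox4 KO (-2.03, SE 0.2, adjusted p = 0.00312). Leaving out any library kept both calls, with log2 fold changes between -2.08 and -1.89 in WT and between -2.15 and -1.85 in Nox4 KO.

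Podn encodes podocan, a member of a separate class that binds collagen. It had 35.2, 23.8 and 41.1 RPKM in WT control and 13.1, 11.1 and 15.1 after TGF-β2. Its Nox4 KO libraries had 51.7, 31.6 and 24 RPKM in control and 13.8, 10.6 and 15 after TGF-β2. The groups did not overlap, although the Nox4 KO controls were spread more widely than their stimulated libraries. The level was 2.47-fold lower in WT (-1.31, SE 0.21, adjusted p = 0.00723) and 2.57-fold lower in Nox4 KO (-1.36, SE 0.3, adjusted p = 0.0213). The Nox4 KO call was lost without control replicate 1 (-0.99, adjusted p = 0.034, fold under 2), control replicate 2 (adjusted p = 0.0531), TGF-β2 replicate 1 (0.061) or TGF-β2 replicate 2 (0.0854). The WT call held without any of the 6 libraries.

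**Figure D2:**
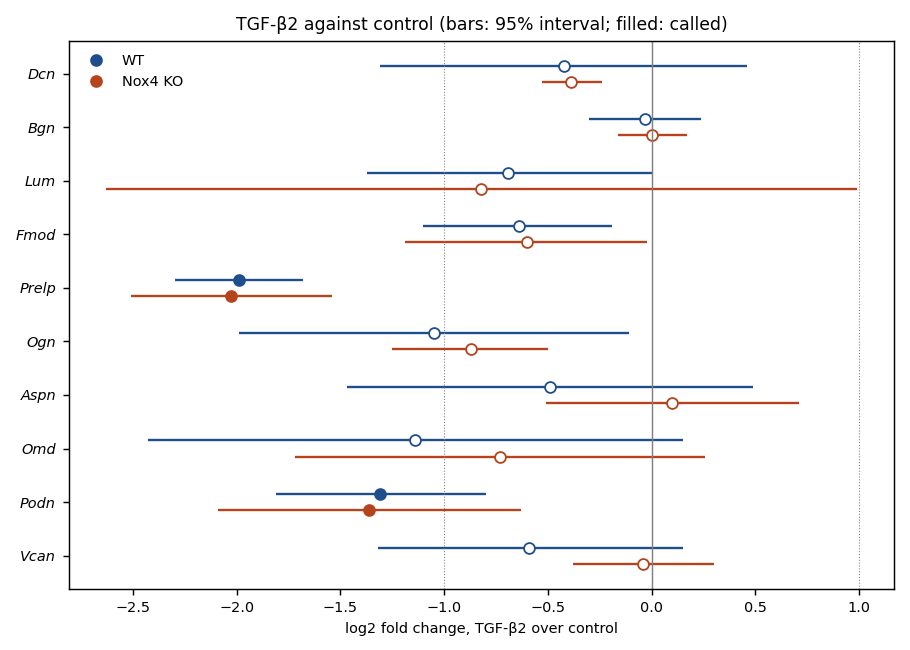
Log2 fold change of TGF-β2 over control (x axis) for each gene (y axis) in WT and Nox4 KO, with 95% intervals as bars, filled points for called genes and dotted lines at a fold of 2. Prelp and Podn are filled in both genotypes, and the points of Bgn lie at -0.03 and 0.

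Fmod, the gene of fibromodulin, a keratan sulfate proteoglycan that binds collagen, was also lower without overlap, by less than 2-fold. It had 98.9, 89.1 and 73.2 RPKM in WT control and 52.9, 67.3 and 43.1 after TGF-β2. The Nox4 KO fibroblasts had 142, 92.7 and 94 RPKM in control and 86.7, 53.9 and 63.3 after TGF-β2. Neither difference passed the test (WT -0.64, SE 0.19, adjusted p = 0.0545; Nox4 KO -0.6, SE 0.24, adjusted p = 0.106). Same-numbered control and stimulated Nox4 KO libraries deviated together, and with the number as a replicate block the Nox4 KO change of Fmod had the same size, -0.6, and an adjusted p of 0.00126. In WT the adjusted p was 0.012 with the block, 0.00723 with DESeq2 and 0.0418 with library-size scaling, each with a fold under 2. With RLE scaling, the other filters and the fit on all 12 libraries it was 0.0512 to 0.0698.

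Ogn, which encodes osteoglycin (mimecan), had 30, 19.1 and 50.4 RPKM in WT control and 20.6, 9.95 and 15.7 after TGF-β2. In Nox4 KO it had 18.5, 20.9 and 24.1 RPKM in control and 8.97, 12.8 and 10.8 after TGF-β2. The WT groups overlapped and the Nox4 KO groups did not. In Nox4 KO the level fell 1.83-fold (-0.87, SE 0.15, adjusted p = 0.0112), short of the fold limit except without TGF-β2 replicate 2 (-1.02, adjusted p = 0.0246). In WT it did not pass (-1.05, SE 0.39, adjusted p = 0.1). There, DESeq2 gave an adjusted p of 0.0227 and the fit on all 12 libraries 0.0336, both calls, and without WT control replicate 3 the log2 fold change was -0.62.

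Dcn encodes decorin, which binds collagen fibrils and TGF-β. It had 265, 202 and 514 RPKM in WT control and 195, 183 and 327 after TGF-β2. Its Nox4 KO libraries had 293, 277 and 308 RPKM in control and 204, 213 and 216 after TGF-β2. The WT groups overlapped widely, whereas the Nox4 KO libraries were tightly grouped and apart. The Nox4 KO level fell 1.31-fold (-0.39, SE 0.06, adjusted p = 0.00847). In WT the log2 fold change was -0.42 (SE 0.37, adjusted p = 0.445), and without WT control replicate 3 it was 0.05.

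Bgn encodes biglycan, the closest relative of decorin, and did not differ detectably. It had 3120, 2940 and 3100 RPKM in WT control and 2740, 3260 and 2730 after TGF-β2. The Nox4 KO fibroblasts had 2910, 2830 and 2930 RPKM in control and 2700, 2620 and 2890 after TGF-β2. All 4 groups lay close together. On the log2 scale the change was -0.03 in WT (95% interval -0.3 to 0.24, adjusted p = 0.868) and 0 in Nox4 KO (-0.16 to 0.17, adjusted p = 0.966), so a 2-fold change in either direction lies outside both intervals.

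Aspn, whose product asporin binds TGF-β and collagen, had 70.3, 41.4 and 120 RPKM in WT control and 55.8, 33.1 and 69.8 after TGF-β2. In Nox4 KO it had 43, 46.9 and 74.1 RPKM in control and 42.9, 52.1 and 70.1 after TGF-β2. The groups overlapped in both genotypes. Neither change passed the test (WT -0.49, SE 0.41, adjusted p = 0.425; Nox4 KO 0.1, SE 0.25, adjusted p = 0.787). Without WT control replicate 3 the WT value was -0.03, and without WT control replicate 2 it was -0.76. With the replicate block the change was -0.44 in WT (adjusted p = 0.0391) and 0.11 in Nox4 KO (adjusted p = 0.152).

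Lum, the gene of lumican, which is needed for regular fibril spacing in the cornea and skin, varied most of the 10 genes between libraries of a group, in Nox4 KO. The coefficient of variation there was 68.4% in control and 63.9% after TGF-β2. Lum had 7.86, 4.5 and 9.27 RPKM in WT control and 5.34, 3.5 and 4.15 after TGF-β2. Its Nox4 KO libraries had 14.3, 7.89 and 2.9 RPKM in control and 6.94, 5.18 and 1.34 after TGF-β2. Replicate 1 was the highest and replicate 3 the lowest of the Nox4 KO libraries with and without TGF-β2, a 4.94-fold and a 5.19-fold range. Leukocyte marker sums in the same Nox4 KO control libraries were 87.4, 31 and 19.6 RPKM, and their part was not tested. The change did not pass the test in WT (-0.69, SE 0.29, adjusted p = 0.131) or in Nox4 KO (-0.82, SE 0.74, adjusted p = 0.431), where it was -0.18 without control replicate 1. With the number as a replicate block, the Nox4 KO change was -0.82 with an adjusted p of 0.00335, and the WT change -0.66 with 0.0336.

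Omd encodes osteomodulin, a keratan sulfate proteoglycan best known from bone, and was the lowest of the 10, with 37 to 379 counts per library. It had 2.29, 1.33 and 4.18 RPKM in WT control and 1.18, 0.495 and 1.73 after TGF-β2. The Nox4 KO fibroblasts had 1.17, 1.18 and 1.91 RPKM in control and 0.383, 0.995 and 1.03 after TGF-β2. The change did not pass the test in WT (-1.14, SE 0.54, adjusted p = 0.174) or in Nox4 KO (-0.73, SE 0.41, adjusted p = 0.218), where the groups did not overlap. The WT value was -0.62 without WT control replicate 3 and -1.57 without WT TGF-β2 replicate 3.

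Vcan had 24.8, 25.2 and 29.7 RPKM in WT control and 17.9, 9.64 and 23.9 after TGF-β2. In Nox4 KO it had 21.6, 21.3 and 16.9 RPKM in control and 19.5, 19.4 and 16 after TGF-β2. The WT groups did not overlap, with WT TGF-β2 replicate 2 the lowest library, and the Nox4 KO groups did. The log2 fold change was -0.59 in WT (SE 0.31, adjusted p = 0.211), or -0.29 without that replicate and -0.89 without WT TGF-β2 replicate 3, and -0.04 in Nox4 KO (SE 0.14, adjusted p = 0.847). Counts per gene do not separate the versican isoforms.

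At an adjusted p under 0.05 and any fold, 2 genes were lower in WT, where 12.2% of all genes were, and 4 in Nox4 KO (Dcn, Ogn, Prelp and Podn), where 14.9% of all genes were. With the replicate block, Lum, Fmod, Ogn, Aspn and Omd were also lower at this limit in WT, and Lum and Fmod in Nox4 KO. The share of all genes lower at any fold with the block is not given here. Groups did not overlap for 4 genes in WT (Fmod, Prelp, Podn and Vcan) and for 6 in Nox4 KO (Dcn, Fmod, Prelp, Ogn, Omd and Podn), each time with TGF-β2 lower. The share of all genes whose groups did not overlap, in either direction, was 45.2% in WT and 48.5% in Nox4 KO, so these counts of members are near the background.

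The spread between libraries differed between genes and, for some genes, between groups. In WT control the coefficient of variation was 55.8% for Omd, 51.4% for Aspn, 50.5% for Dcn and 48% for Ogn, against 3.26% for Bgn and 7.84% for Prelp. For Dcn it was 5.34% in Nox4 KO control, and for Ogn 13.2%. Vcan had 10.2% in WT control and 41.7% in WT after TGF-β2. WT control replicate 3 was the highest library of its group for 8 of the 10 genes, where it was the highest for 53.7% of all genes, and replicate 2 was the lowest for 8, where it was the lowest for 34.3%. In WT control, leukocyte marker sums were 42.6, 24.2 and 113 RPKM in replicates 1, 2 and 3. Their part in the spread was not tested. Prelp and Podn stayed called in WT without replicate 3.

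Summed over the 9 small leucine-rich genes, the level was 4130, 3780 and 4440 RPKM in WT control and 3220, 3700 and 3310 after TGF-β2. The Nox4 KO sums were 3820, 3750 and 3900 RPKM in control and 3130, 3070 and 3370 after TGF-β2. Bgn made up 74.4 ± 4.19% of the sum in WT control and 85.3 ± 2.84% after TGF-β2, and 75.7 ± 0.486% and 85.7 ± 0.524% in Nox4 KO (SD, n = 3). Prelp went from 12.1% to 3.57% in WT and from 10.7% to 2.95% in Nox4 KO. Without Bgn, the sum was 1010, 838 and 1350 RPKM in WT control and 474, 438 and 581 after TGF-β2. For Nox4 KO these sums were 910, 916 and 966 RPKM without and 433, 457 and 482 with TGF-β2. These sums are given as a description. With exon lengths of all transcripts, an alternative chosen after seeing the data, the share of Bgn was 59.1% and 76.9% in WT and 61% and 77.3% in Nox4 KO, and that of Prelp was 24.2% and 8.11% in WT and 21.6% and 6.71% in Nox4 KO.

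**Figure D3:**
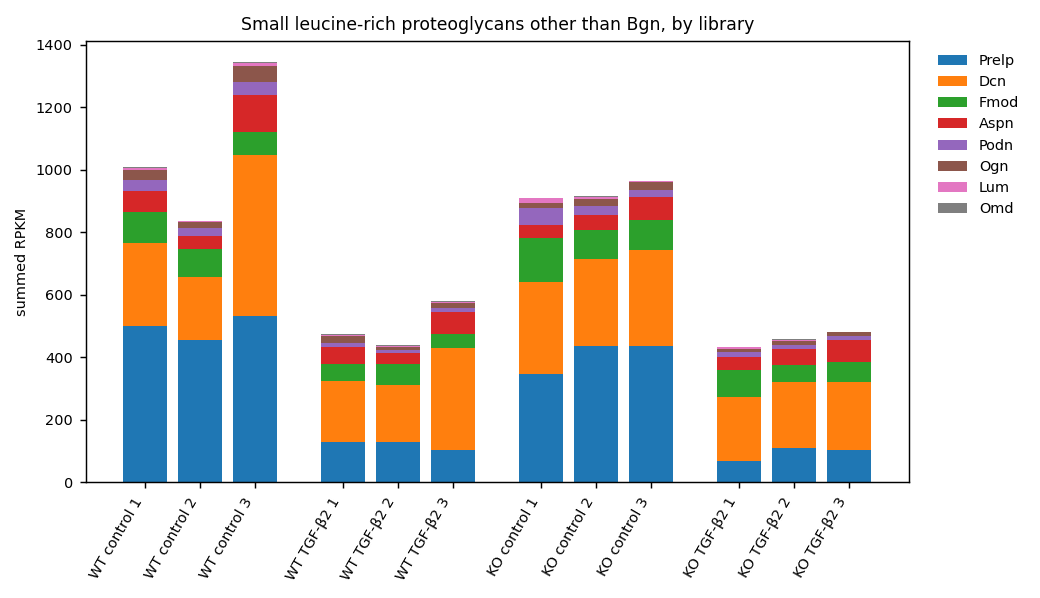
Summed RPKM (y axis, linear from 0) of the 8 small leucine-rich proteoglycan genes other than Bgn in each library (x axis), with a colour for each gene. Control libraries reach 838 to 1350 RPKM and TGF-β2 libraries 433 to 581, and the blue segment of Prelp shrinks in every stimulated library.

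Comparing Nox4 KO with WT, none of the 10 genes passed edgeR's test in control or after TGF-β2 at any fold. The same held for all genes, with 0% of 10767 called in control and 0% of 10439 after TGF-β2, where the smallest adjusted p-values were 0.423 and 0.485. DESeq2 called 6 genes in each comparison and none of the 10. At an unadjusted p under 0.05, 2 of the 10 were lower in Nox4 KO control, Vcan and Prelp, beside 5.54% of all genes, and 0 of the 10 differed after TGF-β2, beside 3.23%.

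Vcan was lower in every Nox4 KO control library than in every WT control library (16.9 to 21.6 against 24.8 to 29.7 RPKM). The log2 difference was -0.45 (95% interval -0.74 to -0.15, adjusted p = 0.828). After TGF-β2 it was 0.1 (-0.66 to 0.87). For Prelp the ranges were 347 to 438 and 457 to 534 RPKM, with a difference of -0.33 (-0.61 to -0.04, adjusted p = 0.828). After TGF-β2 the Prelp difference was of the same size, -0.35 (-0.8 to 0.1). Bgn was the third gene without overlap in control, 2830 to 2930 against 2940 to 3120 RPKM, and differed by -0.12 (-0.34 to 0.11). No overlap was seen for 13.6% of all genes in control and for 10.1% after TGF-β2, where none of the 10 stood apart. The intervals in control were wide for Lum (-1.17 to 1.54), Omd (-1.92 to 0.11), Ogn (-1.45 to 0.09) and Aspn (-1.46 to 0.4). After TGF-β2 they were wide for Lum (-1.22 to 1.36), Omd (-1.79 to 0.8) and Ogn (-1.18 to 0.19). A 2-fold difference lies inside them and was not detectable at this spread.

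**Figure D4:**
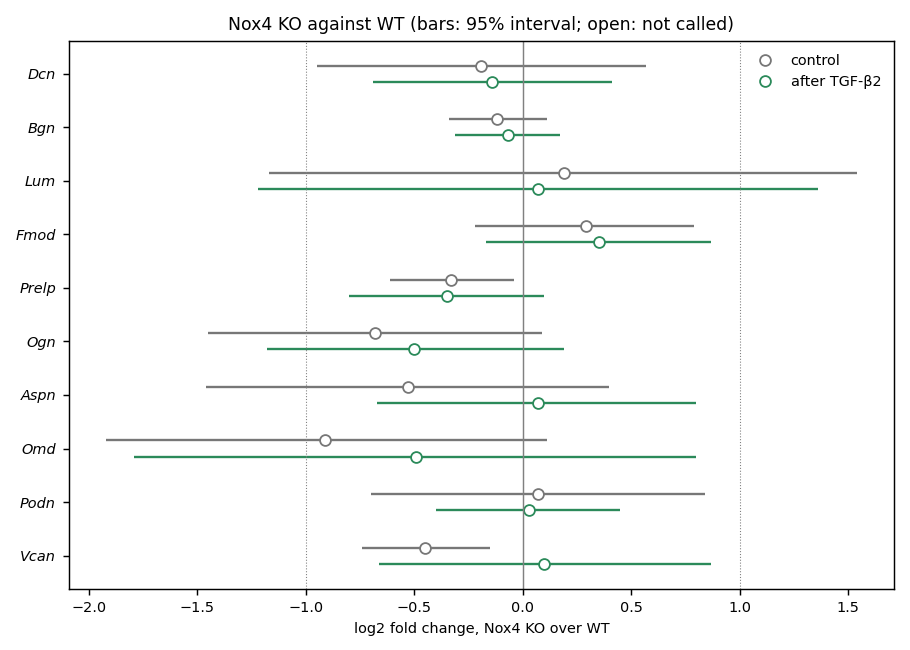
Log2 fold change of Nox4 KO over WT (x axis) for each gene (y axis) in control and after TGF-β2, with 95% intervals as bars, open points for genes not called and dotted lines at a fold of 2. Every interval crosses 0 except those of Prelp and Vcan in control.

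The interaction of genotype and TGF-β2 asked whether stimulation changed a gene by a different factor in Nox4 KO than in WT. It passed for none of the 10 genes and for 0% of 10890 genes tested with edgeR. None of the 10 had an unadjusted p under 0.05, beside 2.68% of all genes, and DESeq2 called 6 genes, none of them among the 10. For Prelp the interaction was -0.02 on the log2 scale (95% interval -0.55 to 0.51) and for Podn -0.04 (-0.91 to 0.83), so the fall of Prelp was not shown to differ and a 2-fold difference between genotypes lies outside its interval. The values farthest from 0 were those of Aspn, 0.6 (-0.6 to 1.8, adjusted p = 0.854), and Vcan, 0.55 (-0.28 to 1.39, adjusted p = 0.854). Leaving out 1 library moved the Aspn value between 0.15 (without WT control replicate 3) and 0.9 (without WT control replicate 2), and that of Vcan between 0.25 (without WT TGF-β2 replicate 2) and 0.87 (without WT TGF-β2 replicate 3).

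Among 10 other small leucine-rich proteoglycans and relatives, 2 were tested in WT and 3 in Nox4 KO. Optc, the gene of opticin, lies at chromosome 1, 133897199 to 133907999, next to Prelp. It had 0.62, 0.863 and 0.78 RPKM in WT control, 0.51, 0.551 and 0.377 after TGF-β2, and 29 to 90 counts over all libraries. Its Nox4 KO levels went from 0.948, 1.04 and 1.06 to 0.53, 0.365 and 0.482 RPKM and was called lower (-1.06, SE 0.2, adjusted p = 0.0141), but not without control replicate 2 (adjusted p = 0.0518) or TGF-β2 replicate 2 (0.0548). In WT it was under the limit of 1 RPKM and was not tested. Kera and Epyc, which follow Lum on chromosome 10 and belong to cornea and cartilage, had at most 11 and 8 counts. Ecm2, upstream of Aspn, did not pass (-0.38 in WT, SE 0.31; -0.19 in Nox4 KO, SE 0.36).

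Several genes that build the sugar chains rose after TGF-β2, and none of those tested was called lower without the replicate block. Of the genes for chondroitin and dermatan sulfate synthesis, 3 of 26 tested were called higher in WT and 4 of 27 in Nox4 KO. At an adjusted p under 0.05 in edgeR's test and any fold, 8 were higher and 3 lower in WT (Ugdh, Csgalnact1 and Papss1), and 6 were higher and 2 lower in Nox4 KO (Ugdh and Papss1). Of all genes at this limit, 1117 of 10743 were higher and 12.2% lower in WT. In Nox4 KO 1637 of 10809 were higher and 14.9% lower. Csgalnact1, the gene of a chondroitin N-acetylgalactosaminyltransferase, had -0.98 in WT (SE 0.18, adjusted p = 0.00995). With the replicate block, chosen for these lists after seeing the data, Chst7 was also called lower in Nox4 KO (-1.01, adjusted p = 0.00491). At any fold the block added Xylt2, Pxylp1, Csgalnact1 (-0.77, adjusted p = 0.00965), Csgalnact2, Chst14 and Slc35b2 as lower in Nox4 KO. It added B3galt6, Chst12, Papss2 and Slc26a2 as higher. Ust, a uronyl 2-sulfotransferase, had 1.69, 1.67 and 2.62 RPKM in WT control and 7.31, 6.19 and 8.25 with TGF-β2, which is 1.91 on the log2 scale (SE 0.2, adjusted p = 0.00176), and 2.06 in Nox4 KO (SE 0.15, adjusted p = 0.00158). Chst11, a chondroitin 4-sulfotransferase, rose by 1.53 in WT (SE 0.22, adjusted p = 0.00471) and 1.67 in Nox4 KO (SE 0.45, adjusted p = 0.0382). Chsy3, a chondroitin synthase, rose by 1.01 and 1.3, and Chsy1 was called in Nox4 KO at 1.04 with 0.85 in WT. Of 5 genes for keratan sulfate synthesis, Chst2, a sulfotransferase, rose by 1.5 in WT (SE 0.11) and 1.31 in Nox4 KO (SE 0.24), and at any fold 1 was lower in WT, B4galt4 (-0.61, adjusted p = 0.0406), and 0 in Nox4 KO. The median over the chondroitin list was 0.04 in WT and 0.1 in Nox4 KO, beside 0 and -0.01 over all genes. Without TGF-β2 replicate 2 of Nox4 KO, Chst11 (adjusted p = 0.123), Chst2 (0.0544) and Chsy1 (0.99, fold under 2) were no longer called there. Chst11 also lost its call without each other Nox4 KO library but TGF-β2 replicate 3 (adjusted p from 0.0702 to 0.101), and Chsy1 without control replicate 3 (0.99). The Chsy3 call in WT was lost without control replicate 3 (0.96), TGF-β2 replicate 1 (1) or TGF-β2 replicate 3 (0.93), each with a fold under 2. Scaling by library size alone lost the calls of Chsy3 in WT (0.97) and Chsy1 in Nox4 KO (0.95) as well.

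Of 9 tested proteases that cleave versican or the small proteoglycans, the ADAMTS genes Adamts9, Adamts5 and Adamts1 fell in WT. Adamts1 went from 70.1, 73.9 and 135 RPKM to 11, 9.22 and 15.1 (-2.93, SE 0.31, adjusted p = 0.00167). Adamts5 went from 31.4, 37.8 and 67.9 RPKM to 2.92, 2.94 and 5.32 (-3.57, SE 0.38, adjusted p = 0.00173). Adamts9 had 5.68, 6.8 and 7.54 RPKM before and 0.429, 0.281 and 0.372 after (-4.16, SE 0.2, adjusted p = 0.000236). In Nox4 KO, Adamts9 (-3.51, SE 0.32) and Adamts1 (-2.63, SE 0.48, adjusted p = 0.0122) were called, and Adamts5 had -3.01 (SE 0.9, adjusted p = 0.0501), or -3.34 and a call with the replicate block (adjusted p = 0.000473). Mmp14, a membrane-bound matrix metalloprotease, was called higher in Nox4 KO (1.04) and had 0.92 in WT. Without Nox4 KO TGF-β2 replicate 2 the Adamts1 call was lost (adjusted p = 0.0595), and without control replicate 3 that of Mmp14 (0.88, fold under 2). Scaling by library size alone also lost the Mmp14 call (0.96).

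Of 12 tested cell-surface proteoglycans, Tgfbr3, which encodes betaglycan, a co-receptor that presents TGF-β2, fell most. It had 41.1, 36.9 and 46.3 RPKM in WT control and 4.73, 3.43 and 5.21 after TGF-β2 (-3.17, SE 0.19, adjusted p = 0.000383), with -2.84 in Nox4 KO (SE 0.28, adjusted p = 0.00312). Sdc4, the gene of syndecan-4, fell by 1.25 on the log2 scale in WT and by 1.52 in Nox4 KO, and Gpc6 was called lower in WT (-1.37, with -0.8 in Nox4 KO). Cspg4, which encodes the NG2 proteoglycan, rose by 2.19 in WT (SE 0.34, adjusted p = 0.00611) and by 1.97 in Nox4 KO (SE 0.46, adjusted p = 0.0251). The Nox4 KO call of Cspg4 was lost without any 1 of control replicates 1 and 2 and TGF-β2 replicates 1 and 2 (adjusted p from 0.0589 to 0.0852). That of Sdc4 was lost without control replicate 1 (0.0506), TGF-β2 replicate 1 (0.0533) or 2 (0.0596). The Gpc6 call in WT was lost without control replicate 2 (0.0659) or 3 (0.0904) or TGF-β2 replicate 1 (0.0903). None of 7 other matrix proteoglycans was called in either genotype. Hspg2 (perlecan) had -0.42 in WT (SE 0.32) and -0.01 in Nox4 KO (SE 0.09).

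Among 10 collagens of the fibrils that these proteoglycans bind, 4 were called lower in WT and 1 in Nox4 KO. With the replicate block, 2 were called in Nox4 KO, Col6a1 and Col14a1 (-1.26, adjusted p = 0.000827), and Col6a2 (-0.99) and Col3a1 (-0.92) had adjusted p-values of 0.000357 and 0.000447 with a fold under 2. None of the 10 passed the interaction test, so the counts were not shown to differ between genotypes. Col6a1 went from 405, 309 and 399 RPKM to 150, 124 and 124 in WT (-1.44, SE 0.15, adjusted p = 0.00176) and was lower in Nox4 KO (-1.14, SE 0.33, adjusted p = 0.0456). Col6a2 (-1.28), Col3a1 (-1.19) and Col14a1 (-1.51) were called in WT and had -0.97, -0.92 and -1.28 in Nox4 KO. In the fit on all 12 libraries the WT call of Col14a1 was lost (-1.51, adjusted p = 0.0651). Col1a1, the main collagen of the dermis, had -0.08 in WT (SE 0.15) and -0.04 in Nox4 KO (SE 0.15). The Nox4 KO call of Col6a1 was lost without control replicate 1 (adjusted p = 0.125) or 2 (0.116) or TGF-β2 replicate 2 (0.144) or 3 (0.0657). It was also lost with the filterByExpr filter (adjusted p = 0.0507).

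Has2, a hyaluronan synthase whose product versican binds, went from 14, 14.5 and 16.3 RPKM to 46, 39.8 and 50.2 in WT (1.65, SE 0.12, adjusted p = 0.000595) and rose by 2.12 in Nox4 KO (SE 0.27, adjusted p = 0.00509). It was the only 1 of 7 tested hyaluronan synthases and versican partners to be called in either genotype. Of 10 tested ligands and receptors that decorin or biglycan bind, Tgfb1 rose in WT from 25.6, 21.7 and 15.2 to 105, 94.4 and 65.9 RPKM (2.12, SE 0.26, adjusted p = 0.00292). In Nox4 KO it rose by 1.69 (SE 0.48, adjusted p = 0.0421), a call lost without any library but TGF-β2 replicate 3 (adjusted p from 0.0794 to 0.133). Met (-1.31) and Tlr4 (-1.15) were called lower in WT, with -1 and -0.78 in Nox4 KO. Itga2 was called higher in Nox4 KO (2.01, with 0.75 in WT). The Tlr4 call was lost without WT control replicate 2 (adjusted p = 0.0598) or 3 (0.081) or TGF-β2 replicate 1 (0.0632) or 2 (-0.93, fold under 2). That of Itga2 was lost without Nox4 KO control replicate 1 (0.0557) or 2 (0.0544) or TGF-β2 replicate 2 (0.0626). No gene of these 9 lists passed the interaction test or either comparison of Nox4 KO with WT.

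**Figure D5:**
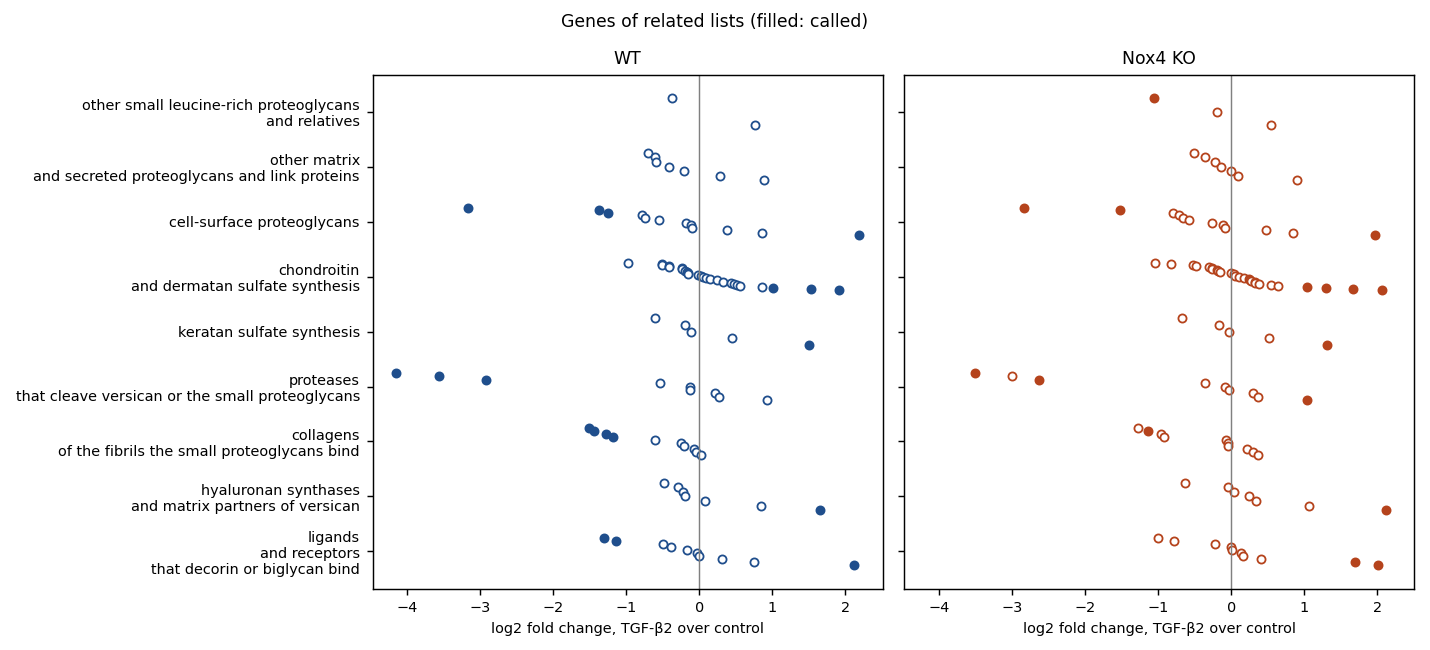
Log2 fold change of TGF-β2 over control (x axis) for each tested gene of the 9 related lists (y axis) in WT (left) and Nox4 KO (right), with filled points for called genes. The points farthest to the left are 3 ADAMTS genes and Tgfbr3, and Adamts5 is an open point in Nox4 KO at -3.01.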

How the data were processed

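RNA of 12 libraries of primary mouse skin fibroblasts was sequenced as single-end reads. Per the submitters' processing notes and the methods, the authors called bases with CASAVA 1.8.2, aligned to GRCm38 using STAR 2.4, left out multiply mapping reads and assigned the rest with featureCounts 1.4.6 to a union of the exons of each gene's protein-coding isoforms. The deposited values are these raw counts, without normalization or filter.

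Genes were matched by Ensembl identifier to GENCODE (21556 of 21556), and RPKM was computed from the count, the merged exon length and the total count. Each pair of groups was fitted on its own 6 libraries with edgeR 4.0.16 in R 4.3.3 (quasi-likelihood test, TMM, Benjamini-Hochberg adjustment) on genes with a mean of at least 1 RPKM in at least 1 group. Some genes, such as Optc, Omd, Chst7, Adamts9, Col14a1, Met and Itga2, passed in some comparisons only through the group where they were higher. The interaction used all 12 libraries. Genes were called below an adjusted p-value of 0.05 and, outside the interaction, at a fold of at least 2. The standard error was derived from the F statistic. The procedure was tested on simulated data.

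Same-numbered control and stimulated Nox4 KO libraries deviated together from their group means (correlations 0.771, 0.685 and 0.748 over 10890 genes), and this check is the source of the pairing, which neither labels nor methods state. Alternatives were DESeq2 1.42.0, RLE and library-size scaling, 2 other filters, all 12 libraries in 1 fit, a replicate block, no fold limit, lengths from all transcripts and each library left out in turn. Named are all 10 members and, from each related list, up to 4 called genes with the largest absolute log2 fold change in each genotype. Hspg2, Col1a1, Ecm2, Kera, Epyc, Ugdh, Csgalnact1, Papss1, B4galt4 and Chst7 were named after their values were seen. The same holds for Xylt2, Pxylp1, Csgalnact2, Chst14, Slc35b2, B3galt6, Chst12, Papss2 and Slc26a2. The members and lists were chosen with earlier results of these data known. Promoter windows came from RefSeq (GRCm38.p6).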

Additional observations from a re-analysis of the deposited data

How the results depend on the processing

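The number of genes called after TGF-β2 stayed at 2 in WT and 2 in Nox4 KO under the other scalings and filters. DESeq2 and the fit on all 12 libraries gave 3 in WT, adding Ogn, and 2 in Nox4 KO. With the replicate block, 4 genes were called in WT, adding Ogn (-1.02) and Omd (-1.16). Same-numbered WT libraries had correlations of 0.0731, 0.437 and 0.532, each highest with its own number. Those of Nox4 KO against WT were 0.185, 0.00511 and 0.289 in control and 0.285, -0.179 and 0.238 after TGF-β2. Numbers 1 and 3 were above the best other number (0.0773 and -0.0677 in control, 0.0465 and 0.058 after TGF-β2). Number 2 was below it (0.442 in control, 0.382 after TGF-β2). What same-numbered libraries of the 2 genotypes share is not stated and was not tested. In Nox4 KO the block called the same number, 2, and of the related lists it added calls of Adamts5, Chst7 and Col14a1 and lost none. With no fold limit, 4 genes were called in Nox4 KO. Leaving out 1 library gave 1 to 2 calls in Nox4 KO. Scaling by library size alone moved the median of all genes in Nox4 KO to -0.102, and Bgn then had -0.08.

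The sign changed for some values, none of them called, and not only for those near 0 (Dcn in WT had -0.42 with all 6 libraries). In WT after TGF-β2, Bgn had 0.01 without a filter and 0 with filterByExpr. In Nox4 KO against WT after TGF-β2, Lum had -0.16 with the replicate block. For the interaction, library size alone gave -0.01 for Bgn and for Fmod, and the replicate block gave 0 for Podn. Leaving out 1 library gave ranges across 0. After TGF-β2 these were -0.74 to 0.05 (Dcn) and -0.1 to 0.01 (Bgn) in WT, and -0.1 to 0.36 (Aspn), -0.03 to 0.03 (Bgn) and -0.16 to 0.05 (Vcan) in Nox4 KO. For Nox4 KO against WT they were -0.43 to 0.26 (Dcn), -0.44 to 0.6 (Lum) and -0.3 to 0.3 (Podn) in control, and -0.2 to 0.32 (Aspn), -0.31 to 0.18 (Dcn), -0.39 to 0.5 (Lum), -0.1 to 0.16 (Podn) and -0.2 to 0.42 (Vcan) after TGF-β2. For the interaction they were -0.42 to 0.37 (Dcn), -0.15 to 0.29 (Fmod), -0.57 to 0.51 (Lum), -0.23 to 0.48 (Ogn), -0.08 to 0.86 (Omd), -0.29 to 0.33 (Podn) and -0.14 to 0.16 (Prelp). The causes were not tested.

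Of 35 calls of genes from the related lists, 20 held under all alternatives, and the others lost the call under at least 1, with no change of sign. These alternatives were added after seeing the data. Omd had 37 to 379 counts per library, which limits its precision, and 3 libraries a group limit all intervals.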
